A study of Mus musculus with 69 samples.

Results

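The cells compared here are 21 single cells of the ventricular and subventricular zone (VZ/SVZ) of the mouse dorsal forebrain at embryonic day 14: the 7 cells whose sample title carries the letter A and the 14 whose title carries the letter B, of 69 cells in all. They were chosen by that title letter alone. The labels do not say what the letters stand for, nor whether expression values were used to assign them, so every difference between A and B is given as a description. The strain of both groups is CD1, the labels name no treatment and no genetic change, and both share the VZ/SVZ source label. Fragments of the dorso-lateral wall were trypsinised, single cells were picked by hand with a glass capillary, and the cDNA of each cell was amplified and hybridised to 1 Affymetrix array. The study amplified 102 cells and put 70 on arrays, of which 69 were analysed here. The other letters are C (7 cells), D (7 cells) and X (31 cells), also from the VZ/SVZ, and E (3 cells), from the cortical plate. No label names an embryo, a litter or a culture for any cell. Each letter therefore counts as 1 sample, the cells are not replicates of a condition, and no p-value is given. The SDs and ranges are spreads between cells.

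At this age the VZ holds apical progenitors, also called radial glia, which touch the ventricle, divide there and keep Notch signalling active. Notch drives the Hes transcription factors, which repress proneural genes such as Neurog2. Cells that escape this repression switch on Neurog2 and then Eomes (Tbr2), move into the SVZ as intermediate progenitors and divide into neurons that migrate to the cortical plate.

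Signals were the MAS5 values deposited by the authors, analysed as log2. They fell into 2 modes, at 2.58 and 8.97 log2, and the lowest point between them, a signal of 52.9 or 5.72 log2, served as the floor: a value under it was set to it, and a gene above it in a cell is called found there. Of all values 17.9% passed the floor, and 0 of 207 values of the TrpnX control probe sets, which match no RNA of the sample, did so. Differences are mean log2 of A minus mean log2 of B, and a difference of at least 1 log2 unit (2-fold) either way counts as higher or lower. A difference can be understated where cells lie at the floor, and a fold is written as "at least" where no cell of one group passed it. That fold is a strict lower bound only where every cell of the other group passed the floor, as for Hes1. Elsewhere the other group had cells at the floor too, and the fold is that of the floored means. Of 18194 genes, 4453 to 5431 were found per A cell (median 4984) and 3804 to 5552 per B cell (median 4864). Spiked bacterial RNAs gave the sensitivity: phe, added at 20 copies per cell, passed the floor in all 7 A and all 14 B cells, and thr, added at 5 copies, passed it in 4 A and 6 B cells. A transcript at a few copies per cell can therefore be missed, and an absent gene is one not found at this sensitivity. These arrays carry no read counts. The number of cells limits the precision of a share of cells. For a difference between the letters the number of embryos matters too, and the labels do not state it.

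Genes counted as expressed were those found in at least 10 of the 48 cells with another letter, a rule that does not use A or B, and 7682 of the 18194 genes met it. Of these, 877 (11.4%) were higher in A and 635 (8.27%) were lower in A, with a median difference of 0.04. Over all 18194 genes, 928 (5.1%) were higher in A and 647 (3.56%) lower, and complete separation was found for 3 genes (0.0165%) each way. The counts depended on the floor: with a floor at the 95th percentile of the TrpnX signals, 1822 expressed genes were higher and 1358 lower. With quantile normalization the counts were 754 higher and 737 lower, and with each cell scaled to one trimmed mean 770 and 695, so 50.6% and 52.6% of the genes past 1 log2 unit were the higher ones, against 58.0% with the signals as deposited. Few genes separated all the cells. Every A cell lay above every B cell for 3 expressed genes (0.0391%): Hes1, Fgfr3 and Cst3. Every A cell lay below every B cell for 3 others (0.0391%): Neurog2, Cemip2 and Sox4. Cst3 and Sox4 lie outside the rule for named genes and were singled out after their values were seen.

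The largest differences in either direction were in the neurogenic transcription programme, and it was lower in A. Neurog2, the proneural factor that starts cortical neurogenesis, had a lowest, median and highest signal of 5.72, 5.72 and 7.69 log2 over the A cells, against 10.21, 12.09 and 12.47 log2 over the B cells. It was found in A-11L alone among the A cells, 1 of 7 (14.3%, exact Clopper-Pearson 95% interval 0.361% to 57.9%, which covers counting error only), and in 14 of 14 B cells. At the lower TrpnX floor Neurog2 passed in 57.1% of the A cells. Its mean differed by −5.82 log2, or 56.4-fold lower in A, and the groups were 2.52 log2 units apart at their nearest cells. Eomes, the T-box factor that marks intermediate progenitors, was found in 0 of 7 A cells (upper limit of the exact interval 41.0%). In B it had a lowest, median and highest signal of 5.72, 10.87 and 12.15 log2 and was found in 13 of 14 cells, so it was at least 26.7-fold lower in A. At the TrpnX floor Eomes passed in 42.9% of the A cells, outside that interval. Gadd45g, a growth-arrest gene that proneural factors switch on, was also found in 0 of 7 A cells and in 13 of 14 B cells, where its median was 10.66 log2. It was at least 19.9-fold lower in A. The single B cell without Eomes and without Gadd45g was the same one, B-17F.

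**Figure D1:**
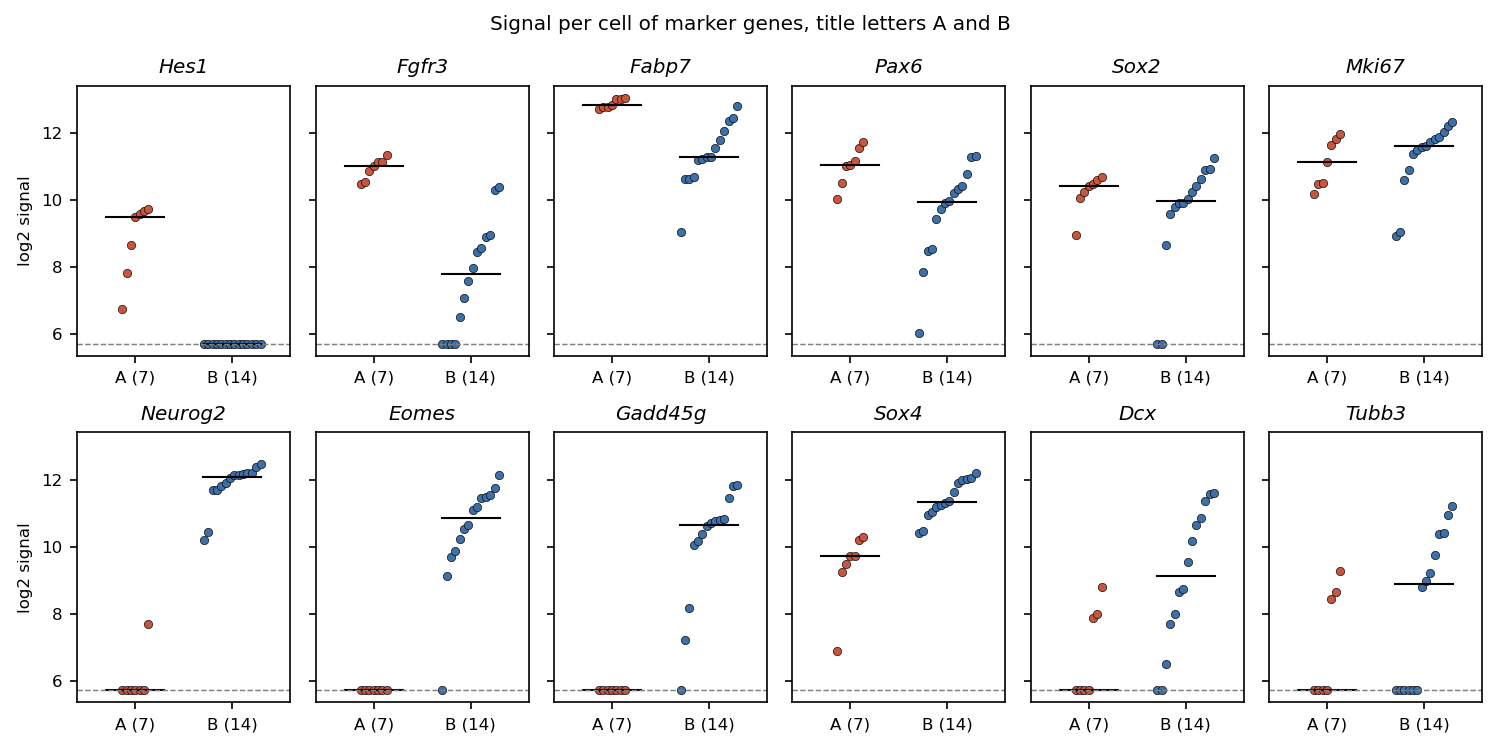
Log2 signal of 12 marker genes in each of the 7 A cells (red, left) and 14 B cells (blue, right). Each point is 1 cell, cells are sorted by signal within a group, the bar is the median and the dashed line is the floor at 5.72 log2. All A cells lie above all B cells for Hes1 and Fgfr3 and below them for Neurog2 and Sox4, while the groups overlap for Sox2 and Mki67.

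The other genes of this programme moved with them in most B cells. Insm1, a zinc finger factor that promotes delamination of basal progenitors, had 5.72, 7.35 and 10.21 log2 (lowest, median and highest) in A against 8.62, 11.22 and 12.04 log2 in B, a difference of −3.68. A-15K held the highest A value and overlapped the B cells, and the other 6 A cells lay below all of them. Hes6, an atypical Hes protein that opposes Hes1, had 5.72, 6.63 and 8.69 log2 in A against 7.76, 11.08 and 11.73 log2 in B. Mfng, a glycosyltransferase that modifies Notch receptors, passed the floor in 1 A cell by a margin that left it at 5.77 log2, and was found in 13 of 14 B cells with a median of 10.04 log2. Sox4, an HMG-box factor of committed neuronal cells, was found in all 21 cells but at separate levels, 6.89 to 10.30 log2 in A and 10.42 to 12.19 log2 in B. Cemip2, a cell surface hyaluronidase, was found in 1 A cell, A-17M at 7.69 log2, and in all 14 B cells at 7.96 to 10.81 log2.

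Of the 17 expressed genes of the intermediate progenitor list, 14 were lower in A, 1 was higher and 2 lay within 1 log2 unit. Among all expressed genes 8.27% were lower and 11.4% higher. The list had a median difference of −1.54, against 0.04 for all expressed genes. The list was composed with earlier results of these data known and is not independent evidence of its direction. The higher member was Pcdh8, a protocadherin, found in 4 of 7 A cells and 4 of 14 B cells. Btg2, an antiproliferative gene of neurogenic divisions, was found in 6 of 7 A cells with a median of 8.81 log2 and in all B cells with a median of 10.27 log2, so the transcript was lower in A (−1.51) but not missing. Neurod1, a bHLH factor downstream of Eomes, was found in 0 of 7 A cells and in 6 of 14 B cells, where it reached 10.93 log2. Of the 11 expressed proneural bHLH factors and their targets, 8 were lower in A and 0 higher, with a median of −2.52. All of these 8 but Rnd2 are also in the intermediate progenitor or the neuron list, so this is not a separate result. The ubiquitous E-protein partners of these factors did not share the pattern, at 0.37 for Tcf3, 0.25 for Tcf4 and −0.29 for Tcf12.

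**Figure D2:**
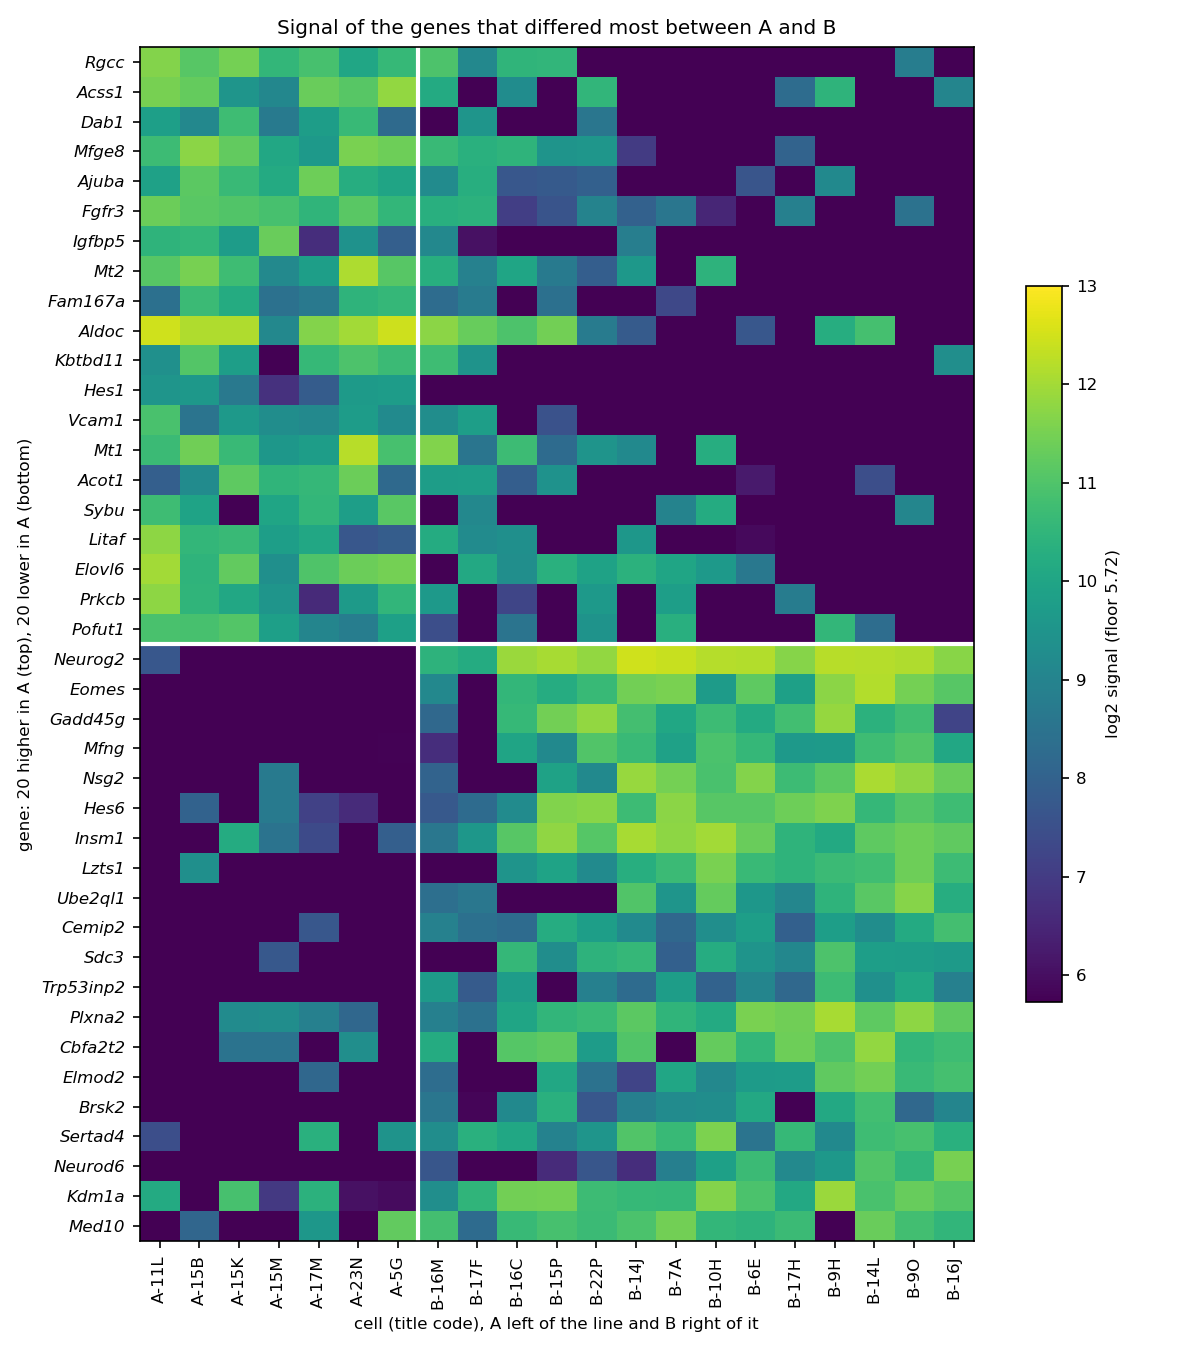
Log2 signal of the 20 named genes higher in A (upper block) and the 20 lower in A (lower block) in the 7 A cells (left of the white line) and 14 B cells (right), with B cells ordered by how many of the upper 20 genes they hold. Of the upper 20 genes the A cells hold 19 or 20 and the B cells 2 to 16, most in B-16M and B-17F. Of the lower 20 the A cells hold 3 to 8 and the B cells 11 to 20.

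Apical progenitor genes were higher in A. Of the 28 expressed genes of that list, 21 were higher in A and 0 lower, against 11.4% and 8.27% of all expressed genes. The median difference was 2.03, and the list too was composed with earlier results known. Hes1, the Notch-driven repressor of proneural genes, had a lowest, median and highest signal of 6.77, 9.51 and 9.74 log2 in A and was found in 7 of 7 A cells (100%, exact interval from 59.0%) and in 0 of 14 B cells (exact interval to 23.2%). It was at least 8.59-fold higher in A, and no other gene was found in all A cells and in no B cell. At the lower TrpnX floor 28.6% of the B cells passed for Hes1. Fgfr3, a fibroblast growth factor receptor, had 10.49, 11.02 and 11.35 log2 in A against 5.72, 7.79 and 10.40 log2 in B, or 9.48-fold higher in A. The B cells nearest to A were B-17F at 10.40 and B-16M at 10.30 log2. Cst3, the secreted protease inhibitor cystatin C, was found in all 21 cells, at 11.62 to 12.46 log2 in A and 8.86 to 11.52 log2 in B.

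The radial glial genes Fabp7, a brain lipid-binding protein, and Vim, the filament protein vimentin, were found in every A and every B cell and differed in level. Fabp7 had 12.72, 12.83 and 13.04 log2 in A against 9.06, 11.28 and 12.82 log2 in B, and only B-16M reached the A range. Vim had 12.05, 12.43 and 12.60 log2 in A against 7.99, 11.62 and 12.40 log2 in B, a difference of 1.24 that drops to 0.99 without B-16J. Pax6, a dorsal progenitor determinant, had 10.03, 11.05 and 11.74 log2 in A against 6.05, 9.96 and 11.33 log2 in B (1.41). Slc1a3, the glutamate transporter GLAST, was found in 6 of 7 A cells and 5 of 14 B cells (1.87). Within the title numbers that hold both letters (15 and 17), Pax6, Vim and Fabp7 lay at 0.32, 0.34 and 0.90, and Slc1a3 at 2.43. Sox2, a progenitor maintenance factor, differed by 0.66, with 12 of 14 B cells at 8.66 to 11.25 log2 and 2, B-14L and B-9H, under the floor. Nes, which encodes nestin, differed by 0.80 and spanned 5.72 to 10.02 log2 in A. Lhx2 and Emx2, the dorsal patterning factors, lay at −0.04 and 0.22, and Prom1, an apical membrane marker, at −0.74, so the list did not move as a block.

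Among the other genes with the largest positive differences, several had roles in metabolism or in the surroundings of the cell. Rgcc, a cell cycle regulator, had 10.02, 10.87 and 11.64 log2 in A against 5.72, 5.72 and 10.98 log2 in B, where 5 of 14 cells held it (12.5-fold higher in A). Mfge8, a secreted integrin ligand, had 9.64, 11.26 and 11.73 log2 in A and was found in 7 of 14 B cells (10.3-fold). Dab1, the intracellular adaptor of reelin signalling, was found in 7 of 7 A cells and 2 of 14 B cells (10.4-fold). Aldoc, the brain isoform of aldolase, had 9.11, 12.13 and 12.48 log2 in A against 5.72, 8.28 and 11.75 log2 in B. The metallothioneins Mt1 and Mt2, which bind zinc and copper, were found in all A cells and in 7 of 14 B cells each, at differences of 3.02 and 3.22. As near-identical paralogs they can share signal on an array. Acss1, a mitochondrial acetyl-CoA synthetase, and Elovl6, a fatty acid elongase, were higher by 3.42 and 2.93. Vcam1, an adhesion molecule of radial glia, was found in 7 of 7 A cells at 8.53 to 10.92 log2 and in 3 of 14 B cells. Ajuba, a LIM-domain adaptor of the Hippo pathway, and Igfbp5, a binding protein of insulin-like growth factors, were higher by 3.37 and 3.23. Averaged within the title numbers that hold both letters, Mfge8 lay at 0.99 and Vcam1 at 1.49. Dab1, Acss1 and Ajuba lay at 2.97, 4.29 and 3.13 there, and Mt1 and Mt2 at 2.46 and 2.10. Rgcc, Aldoc and Elovl6 lay at 0.52, −0.33 and 0.03 within number 15 and at 3.45, 3.14 and 3.06 within number 17. Igfbp5 lay at 4.81 and 0.78 in the same order.

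The genes with the largest negative differences beyond the neurogenic factors included genes of early neuronal form and of trafficking. Nsg2, a neuronal endosome protein, was found in 1 of 7 A cells, A-15M at 8.70 log2, and in 12 of 14 B cells with a median of 11.04 log2. Lzts1, which lowers cell adhesion in differentiating cortical cells, was found in A-15B alone at 9.35 log2 and in 12 of 14 B cells. Plxna2, a semaphorin receptor, had 5.72, 8.15 and 9.29 log2 in A against 8.44, 10.91 and 12.06 log2 in B. Brsk2, a polarity kinase, and Trp53inp2, an autophagy protein, were each found in 0 of 7 A cells and 13 of 14 B cells, at least 8.33-fold and 8.86-fold lower in A. With Eomes and Gadd45g they were the 4 genes in no A cell and in at least 13 B cells. Kdm1a, the histone demethylase LSD1, was found in 6 of 7 A cells and all 14 B cells, and it spanned 5.72 to 10.88 log2 in A against 9.31 to 11.91 log2 in B.

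Members of the Notch pathway differed in both directions. Of the receptors, Notch2 had 8.44, 10.33 and 11.02 log2 in A against 5.72, 8.61 and 10.79 log2 in B (2.03), Notch3 was higher by 1.52 and Notch1 lay within 1 log2 unit at 0.24. Rbpj, the DNA-binding partner of the cleaved receptor, differed by 1.02. The ligand Dll1, which presents the Notch signal to neighbouring cells, was found in 2 of 7 A cells and 9 of 14 B cells and was lower in A (−2.33). Numbl, an adaptor that antagonises Notch, was found in 0 of 7 A cells and 9 of 14 B cells, at least 3.03-fold lower in A. The ligand Jag1 and the ligand-activating ubiquitin ligase Mib1 lay at 0.04 and −0.01. Of the 13 expressed receptors, ligands and regulators, 3 were higher and 3 lower in A, with a median of 0.02. Over all expressed genes 11.4% were higher and 8.27% lower. Of the 8 expressed genes of the Notch effector list, which also holds Id genes and Sox9, 6 were higher and 1 lower (median 2.02). The higher ones were Hes1, Sox9 (2.70), Id4 (2.62), Hey1 (2.51), Id1 (1.53) and Hes5 (1.36), and the lower one was Hes6. Hes1, Hes5, Sox9 and Id4 are also in the apical progenitor list, and Hes6 in the intermediate progenitor list. Within the title numbers that hold both letters, Sox9, Id4 and Notch2 lay at 0.67, 0.27 and 0.99, and Numbl at −0.77. Sox9 and Id4 lay at −0.48 and −1.83 within number 15 and at 1.82 and 2.38 within number 17. Averaged over both numbers, Hes1, Hes5, Hes6 and Dll1 lay at 2.36, 1.88, −3.43 and −2.85. Hes5, a canonical Notch target, was found in 5 of 7 A cells with a median of 7.88 log2 and in 2 of 14 B cells, B-16M and B-22P. This contrast depended on the floor: at the TrpnX floor Hes5 passed in 100% of A cells and 78.6% of B cells.

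The promoters of Hes5 and of the 3 most A-depleted neurogenic genes are shown as the start-site context of a Notch target and of the genes with the largest differences, with 2 motifs known from textbooks marked. They are RefSeq start-site sequences of GRCm38.p6, all on the plus strand, each 300 bases long. For Hes5 (chr4:154960673-154960972) capitals mark TGGGAA, the core bound by Rbpj, searched on both strands and found 2 times. For Neurog2 (chr3:127632886-127633185), Eomes (chr9:118477939-118478238) and Gadd45g (chr13:51846425-51846724) capitals mark CACNAG, the N-box bound by Hes repressors, searched on both strands and found 1, 2 and 2 times. TGGGAA occurs in 25.6% and CACNAG in 42.5% of 32851 mouse promoter windows of the same table. A match is a description of the letters and not a binding site. The 2 motifs can share bases where TTCCCA runs into CACNAG, and do not do so in these windows.
Hes5 promoter: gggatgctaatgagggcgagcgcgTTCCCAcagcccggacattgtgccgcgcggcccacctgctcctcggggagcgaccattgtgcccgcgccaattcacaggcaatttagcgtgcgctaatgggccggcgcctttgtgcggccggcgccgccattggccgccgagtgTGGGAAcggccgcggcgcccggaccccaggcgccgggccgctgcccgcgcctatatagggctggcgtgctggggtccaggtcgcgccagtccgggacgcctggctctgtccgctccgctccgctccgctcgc
Neurog2 promoter: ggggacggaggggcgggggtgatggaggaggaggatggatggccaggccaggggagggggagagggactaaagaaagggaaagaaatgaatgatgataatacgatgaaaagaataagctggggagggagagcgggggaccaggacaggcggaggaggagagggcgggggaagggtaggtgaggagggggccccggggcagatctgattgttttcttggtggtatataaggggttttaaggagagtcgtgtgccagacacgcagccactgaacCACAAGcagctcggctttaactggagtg
Eomes promoter: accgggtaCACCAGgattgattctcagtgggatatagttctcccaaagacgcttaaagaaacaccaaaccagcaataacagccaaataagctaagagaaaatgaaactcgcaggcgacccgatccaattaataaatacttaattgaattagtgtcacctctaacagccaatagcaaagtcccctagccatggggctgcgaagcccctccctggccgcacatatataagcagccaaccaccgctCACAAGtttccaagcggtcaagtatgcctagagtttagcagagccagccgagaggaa
Gadd45g promoter: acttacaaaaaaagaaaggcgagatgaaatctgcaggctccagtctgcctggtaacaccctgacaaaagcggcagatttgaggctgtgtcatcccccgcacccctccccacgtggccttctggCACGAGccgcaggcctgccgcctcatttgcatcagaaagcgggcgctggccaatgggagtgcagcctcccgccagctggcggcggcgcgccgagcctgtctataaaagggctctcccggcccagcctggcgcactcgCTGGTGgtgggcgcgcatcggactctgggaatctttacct
The Hes5 window holds the Rbpj core once on either strand. The Gadd45g window holds TGGGAA 1 time too, left in lower case.

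Receptors of the FGF family were higher in A. Fgfr2 had 9.03, 9.93 and 10.26 log2 in A against 5.72, 5.72 and 10.40 log2 in B (2.71), and Fgfr1 had 7.59, 10.23 and 11.32 log2 in A against 5.72, 8.46 and 10.41 log2 in B (2.03). Fgfr2 was found in all A cells and 6 of 14 B cells, and Fgfr1 in all A cells and 11 of 14 B cells. Within the title numbers that hold both letters the Fgfr1 difference was 0.32, under 1 log2 unit, and that of Fgfr2 was 0.14 in number 15 and 2.14 in number 17. Together with Fgfr3 they were the 3 of 7 expressed FGF-ERK genes that were higher, and 0 were lower. The shares over all expressed genes were 11.4% and 8.27%. The feedback inhibitor Spry2, a target of the pathway, was at 0.88.

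Some members of the hedgehog, Wnt and Hippo lists were higher in A, as were 11.4% of all expressed genes. Of 8 expressed hedgehog genes, 4 were higher in A and 0 lower (median 1.11): Gli3, a transcription factor that acts mainly as a repressor (2.44), the co-receptors Gas1 (1.89) and Cdon (1.74), and the inhibitor Sufu (1.30). The hedgehog median was 0.96 without A-11L, without A-15B or without B-9H, and 0.86 within title numbers. The receptor Ptch1 and the transducer Smo lay at 0.67 and 0.46. Gli3 had 9.83, 10.95 and 12.01 log2 in A against 5.72, 8.89 and 11.59 log2 in B. Of 9 expressed Wnt genes, 3 were higher and 0 lower: the transcription factor Tcf7l1 (2.26), the receptor Fzd8 (1.84) and the secreted modulator Sfrp1 (1.48). The target gene Axin2 lay at −0.19. Sfrp1 was found in every cell, at 11.36 to 12.28 log2 in A and 6.20 to 11.78 log2 in B. Of 8 expressed Hippo genes, 2 were higher and 0 lower, with a list median of 0.19. These were the coactivators Wwtr1 (TAZ, 2.35) and Yap1 (1.40). Their DNA-binding partners Tead1 and Tead2 lay at −0.76 and −0.21. Within the title numbers that hold both letters, Fzd8, Cdon and Gas1 lay at −0.04, −0.12 and 0.06, and Yap1 and Gli3 at 0.62 and 0.95, so these 5 fell under 1 log2 unit there. Sufu, Tcf7l1, Sfrp1 and Wwtr1 lay at 2.08, 1.36, 1.05 and 1.01.

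Extracellular matrix genes included 4 of 11 expressed members higher in A and 0 lower, with a median of 0.91. Over all expressed genes 11.4% were higher and 8.27% lower. Tnc, a matrix glycoprotein of the germinal zone, was found in 5 of 7 A cells and 3 of 14 B cells (2.16). The integrin subunit Itgav was found in 6 of 7 A cells and 6 of 14 B cells (1.74). Bcan, the proteoglycan brevican, did not count as expressed by the rule but was found in 4 of 7 A cells and 0 of 14 B cells, at least 4.41-fold higher in A. Apical junction and polarity genes were mostly level: 2 of 12 were higher and 0 lower, with a median of −0.02. Pard6b, a subunit of the apical Par complex, was found in 4 of 7 A cells and 0 of 14 B cells, at least 2.51-fold higher in A. Within the title numbers that hold both letters, Tnc and Pard6b lay at 0.29 and 0.60, and Itgav and Bcan at 2.69 and 2.62.

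Part of the neuronal genes were lower in A. Of 22 expressed neuron genes, 12 were lower in A, 0 were higher and 10 lay within 1 log2 unit. Among all expressed genes 8.27% were lower and 11.4% higher. The list median was −1.01, which moved to −0.85 without B-16J. Dcx, a microtubule protein of migrating neurons, was found in 3 of 7 A cells, with a highest value of 8.81 log2, and in 12 of 14 B cells, with a median of 9.14 log2 (−2.26). Neurod6 and Neurod2, bHLH factors of excitatory neurons, were found in 0 of 7 A cells and in 12 and 10 of 14 B cells. Tubb3, the neuronal beta-tubulin, was found in 3 of 7 A cells and 8 of 14 B cells, with a difference of −1.10 that drops to −0.87 without B-16J and to −0.88 without A-11L. Tbr1, a factor of deep-layer neurons, was found in 0 of 7 A cells and in 4 of 14 B cells. Stmn2, a neuronal stathmin, was found in 0 of 14 B cells and in A-17M alone, at 8.81 log2, and the cortical plate cells of letter E held it in 3 of 3. A-17M also held 27 of the 30 genes of the apical progenitor list, among them Fabp7 at 12.78 and Fgfr3 at 10.49 log2. Gap43, a growth cone protein, differed by 0.79, and Mapt, the tau protein, was under the floor in every A and B cell, so its levels cannot be compared.

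**Figure D3:**
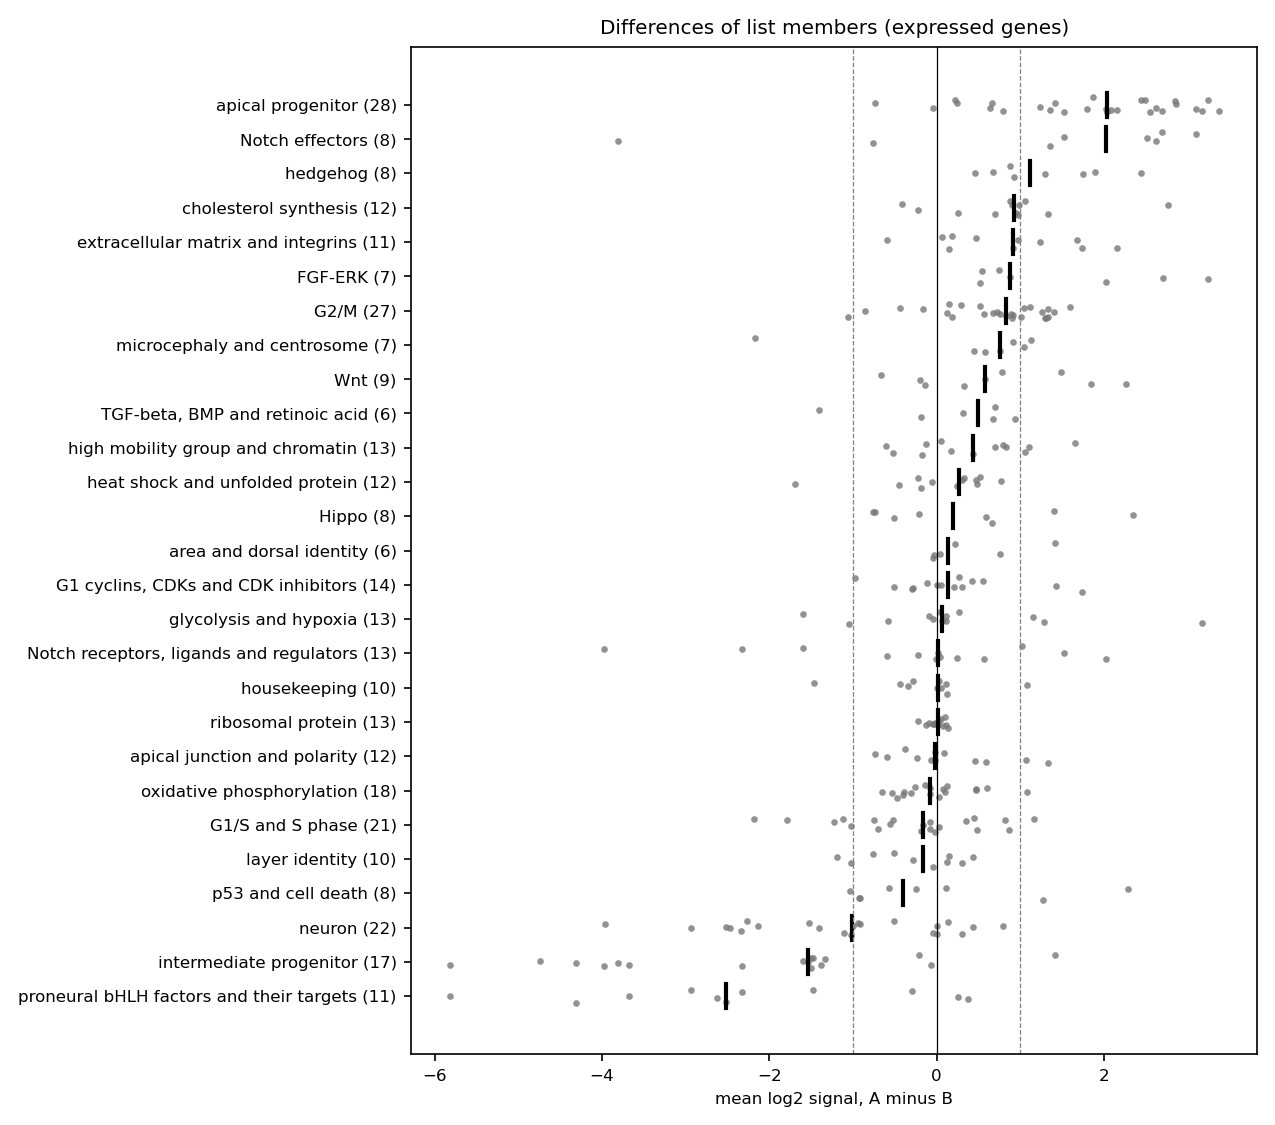
Difference in mean log2 signal, A minus B, of each expressed member (grey points) of the gene lists, with the median of the list as a black bar and the number of members in parentheses. Dashed lines mark 1 log2 unit either way. Medians run between 2.03 for apical progenitor genes at the top and −2.52 for proneural factors at the bottom, and ribosomal and oxidative phosphorylation genes sit near 0.

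Cell cycle genes were found in cells of both letters. Mki67, a marker of cycling cells, was found in all 21 cells, at 10.17 to 11.96 log2 in A and 8.94 to 12.34 log2 in B (−0.16). Top2a, a topoisomerase of S to M phase, spanned 11.79 to 12.47 log2 in A and 7.20 to 12.72 log2 in B (0.56). Of 27 expressed G2/M genes, 10 were higher in A and 1, Hmmr, was lower, with a median of 0.82. Over all expressed genes 11.4% were higher and 8.27% lower. The B average was pulled by 3 cells. The mean of the G2/M list was 9.63 to 10.96 log2 over the A cells and 9.25 to 11.27 log2 in 11 of the B cells. It was 6.20 in B-16C, 6.26 in B-9H and 7.74 in B-14L. B-9H held 6 of 27 G2/M genes and 8 of 25 G1/S and S phase genes, B-14L 13 and 10, and B-16C 5 and 18. Whether these 3 cells were dividing was not tested. Tacc3 and Plk1, genes of the mitotic spindle, had medians of 10.51 and 11.24 log2 in A and 10.32 and 10.69 log2 in B, closer than their mean differences of 1.59 and 1.41. Ube2c, a mitotic ubiquitin enzyme, had medians of 12.88 log2 in A and 12.79 log2 in B, and its difference of 1.34 drops to 0.90 without B-16C and likewise without B-9H.

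S-phase genes divided the A cells. The mean of the G1/S and S phase list was 9.02 log2 in A-11L and 9.13 log2 in A-15K, against 7.28 to 7.82 log2 in the other 5 A cells, and the same pair had the lowest G2/M means of the A cells, 9.63 and 9.72 log2. In B it spanned 7.13 to 10.15 log2, with B-14J (10.15) and B-7A (9.86) highest. Mcm6, a subunit of the replicative helicase, was found in A-11L, A-15K and A-15M and in 11 of 14 B cells (−2.18). Of 21 expressed genes, 5 were lower in A and 1, Tyms, was higher, with a median of −0.16. Among all expressed genes 8.27% were lower and 11.4% higher. Among the G1 genes, the inhibitor Cdkn2c was higher in A (1.74), and the cyclins Ccnd1 and Ccnd2 lay at −0.29 and 0.26. Ccnd1 was scattered within either group, at 5.72 to 11.49 log2 in A and 5.72 to 11.46 log2 in B.

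**Figure D4:**
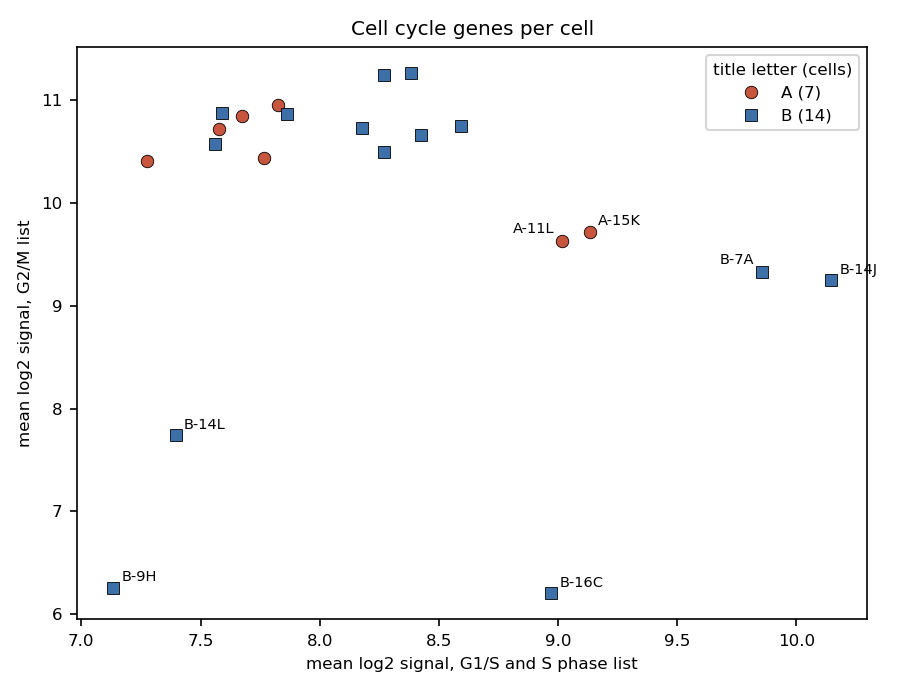
Mean log2 signal of the G2/M list against that of the G1/S and S phase list, 1 point per cell, for 7 A cells (red circles) and 14 B cells (blue squares). Cells with a G2/M mean under 10 log2 are named. The 5 unnamed A cells lie at 10.41 to 10.96 log2 on the G2/M axis, A-11L and A-15K lie lower with more S-phase signal, and B-16C, B-9H and B-14L lie lowest.

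Ribosomal protein and oxidative phosphorylation genes were mostly level between the letters, while some members of other metabolic and stress lists differed. For the list counts that follow, 11.4% of all expressed genes were higher in A and 8.27% lower. Of 13 expressed ribosomal protein genes, 0 were higher or lower (median 0.01), and of 18 oxidative phosphorylation genes 1 was higher and 0 lower (median −0.08). Glycolysis genes had 3 higher and 2 lower of 13, with Aldoc at 3.17 and Tpi1, the triose phosphate isomerase, at −1.59. Of 12 expressed cholesterol synthesis genes 3 were higher and 0 lower, with a median of 0.92. Hmgcs1, the enzyme that makes the precursor of mevalonate, led them with 11.71, 12.15 and 12.75 log2 in A against 5.72, 10.31 and 12.40 log2 in B. Of the immediate early genes only 3 counted as expressed, and Jun was higher in A (2.84), at 7.90 to 10.74 log2 in A, while it was found in 5 of 14 B cells. Fos and Egr1, other immediate early factors, did not count as expressed. Fos was found in 0 A cells and 1 B cell, and Egr1 in none of either letter. Of 8 expressed p53 and cell death genes, 2 were higher and 1 lower. Ccng1, a p53 target cyclin, was found in 5 of 7 A cells and 2 of 14 B cells (2.28). Of 12 heat shock genes, 0 were higher and 1, Hsph1, was lower (−1.69). Within the title numbers that hold both letters, Hmgcs1, Jun and Hsph1 lay at 0.43, 0.67 and −0.80. Aldoc, Ccng1 and Tpi1 lay at 1.40, 1.66 and −3.15 in the same setting. Jun, Aldoc and Ccng1 differed by −1.29, −0.33 and 3.37 within number 15 and by 2.63, 3.14 and −0.06 within number 17. The remaining lists gave 3 higher and 0 lower of 13 chromatin genes (median 0.44), 2 higher and 1 lower of 7 centrosome genes (0.76), 0 higher and 1 lower of 6 TGF-beta, BMP and retinoic acid genes (0.50), 1 higher and 0 lower of 6 dorsal identity genes (0.13) and 0 higher and 2 lower of 10 layer genes (−0.17). The G1 list gave 2 higher and 0 lower of 14 (0.13), and the housekeeping list 1 higher and 1 lower of 10 (0.01). On the housekeeping list these were Sdha (1.08, and 0.25 within title numbers) and Tbp (−1.46, and −3.15 within title numbers).

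Few markers of other cell types were found in the cells of either letter. Members of the endothelial list were found in 0 gene-cell pairs of A and 1 of B, and those of the microglia and erythroid lists in 0 of A and 0 of B. Interneuron lineage genes gave 4 such pairs in A and 2 in B, pericyte and meningeal genes 1 and 0, oligodendrocyte precursor genes 0 and 2, and Cajal-Retzius genes 1 in A and 7 in B. All the interneuron lineage pairs were of Sp8, which the dorsal identity list also holds. Sp8 was thus found in 4 of 7 A cells and 2 of 14 B cells. Of the Cajal-Retzius list, Ebf3, a helix-loop-helix factor, was found in 0 of 7 A cells and 5 of 14 B cells, and the list mean reached 5.84 log2 in A and 6.19 log2 in B. Single genes could be well above the floor: Reln, the secreted protein of these cells, was found in 2 B cells and reached 10.38 log2, Cnp of the oligodendrocyte precursor list was found in 2 B cells and reached 9.98 log2, and Pdgfrb of the pericyte list was at 8.89 log2 in 1 A cell, A-23N. Their part in the differences was not tested. No defining gene of these 7 lists counted as expressed. Of the sex-linked genes, Xist, the transcript of the inactive X chromosome, was under the floor in A-23N and at 12.12 to 12.39 log2 in the other A cells. In B it was at 6.59 log2 in B-7A and at 11.46 to 12.40 log2 in the others.

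The genes with the largest differences were counted in each cell. Each A cell held 19 or 20 of the 20 named genes higher in A, and 3 to 8 of the 20 lower in A. A-17M held 8 and A-15M 7 of the lower genes, the most among the A cells. The B cells held 2 to 16 of the higher genes and 11 to 20 of the lower ones. B-16M held 16 of the higher and 18 of the lower genes, and B-17F held 16 and 11. B-16C held 13 and 16, B-15P 11 and 18, and B-22P 11 and 19, and the other 9 B cells held 2 to 8 of the higher genes. These genes were picked for their difference between the letters, and the rule asked for genes found in most A cells. The gap between the letters, the evenness of the A cells and the wider range of B are therefore built in, and the order of the B cells is a description.

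**Figure D5:**
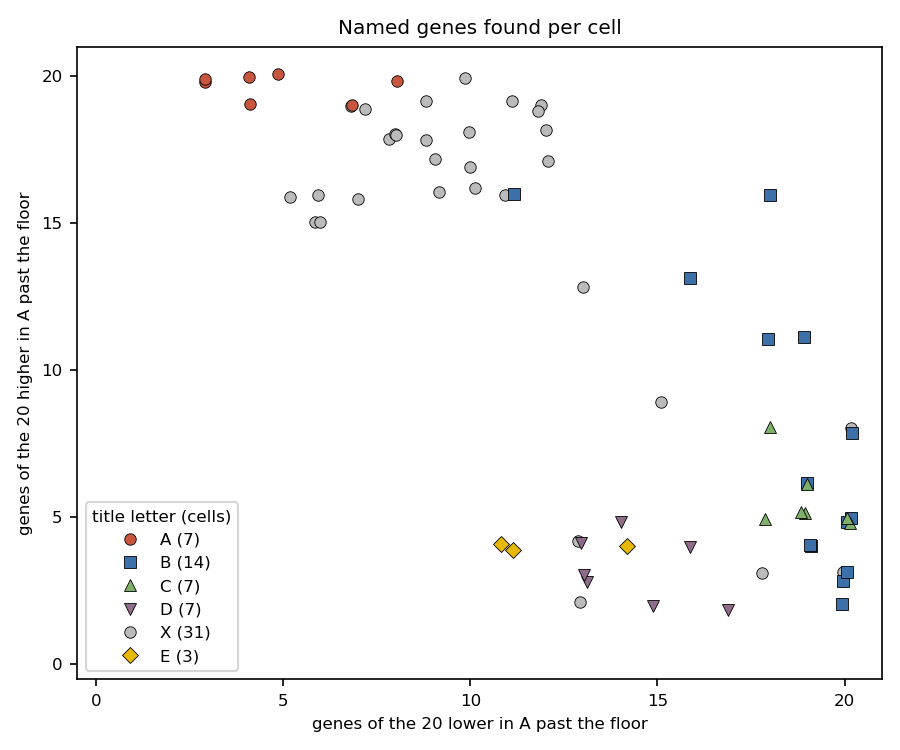
Number of the 20 genes higher in A against the number of the 20 genes lower in A found in each of the 69 cells, with symbols for the title letters and points shifted slightly so that they do not hide each other. A cells lie at upper left with 19 or 20 of the higher genes, B cells run between 2 and 16, and most X cells lie near A on the vertical axis with more of the lower genes.

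The B cells formed a range between apical and neuronal content. The mean of the apical progenitor list was 9.39 to 10.19 log2 over the A cells, against 7.16 to 9.77 log2 over the B cells, with B-16M at 9.77, B-17F at 9.48, B-15P at 9.38 and B-22P at 9.10 log2 on top. The mean of the neuron list was 5.95 to 6.57 log2 in A and 6.13 to 8.49 log2 in B, with B-14L at 8.49, B-16J at 8.39, B-9H at 8.12 and B-9O at 8.11 log2 highest. Across the 14 B cells the apical and the neuron mean ran opposite to each other, with a Pearson r of −0.88 and a Spearman rho of −0.92, and r was −0.89 without the 2 cells farthest from the apical median. The apical and the intermediate progenitor mean gave r = −0.75, and −0.48 without the 2 farthest cells, so that relation leaned on them. The intermediate progenitor and the neuron mean gave r = 0.72, and 0.67 without the 2 farthest cells. No gene is in more than one of these 3 lists, but the lists were composed with earlier results of these data known. These correlations are therefore descriptions and not independent evidence. All the cells share their source, age and strain. Of the 14 B cells, 9 also share their title number with another B cell. Neurod1 was found in B-10H, B-14L, B-16J, B-6E, B-9H and B-9O, all 6 of which held Dcx and 5 of which held Tubb3. Neurog2 was high over the whole range: 12 of the 14 B cells held it at 11.69 to 12.47 log2, and the lowest were B-17F at 10.21 and B-16M at 10.43 log2.

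The same genes were looked at in the other letters, whose values were not used to choose them. C cells held 5 to 8 of the genes higher in A and 18 to 20 of those lower in A, as most B cells did. D cells held 2 to 5 and 13 to 17, and the cortical plate cells of E held 4 and 11 to 14. The X cells were mixed: 24 of 31 held at least 15 of the higher genes and 6 held at most 9. Hes1 was found in 12 of 31 X cells and in 0 C, 0 D and 0 E cells, Eomes in 8 X cells, 7 of 7 C cells and 0 D and 0 E cells. Neurog2 was found in 28 of 31 X cells, 7 of 7 C cells and 3 of 7 D cells. X cells thus resembled A in Aldoc (29 of 31 cells) and Fgfr3 (27 of 31), but most held Neurog2, which was under the floor in 6 of 7 A cells.

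Over the 7682 expressed genes, pairs of A cells correlated at a mean Pearson r of 0.502 (21 pairs) and pairs of B cells at 0.494 (91 pairs), against 0.467 for A with B (98 pairs). The pairs of a set share cells and are not independent. A cells correlated at 0.450 with C cells and B cells at 0.502 with C cells. For X cells the values were 0.470 with A and 0.459 with B. All 7 A cells were closer to A than to B on average. Of the B cells, B-16M (0.523 with A, 0.501 with B) and B-17F (0.510 with A, 0.477 with B) were closer to A.

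The number that follows the letter in the title, whose meaning the labels do not state, was shared between letters only for 15 (3 A cells, 1 B cell) and 17 (1 A cell, 2 B cells). The 5 A with B pairs that share a title number correlated at 0.533, above the 0.467 over all A with B pairs. Within A, pairs of the same number correlated at 0.506 and other pairs at 0.501, and within B at 0.469 and 0.496. The 5 pairs rest on 3 B cells, whose mean r with all A cells was 0.528 (B-15P), 0.510 (B-17F) and 0.463 (B-17H). Averaged within these 2 numbers, 1281 expressed genes were higher in A and 1299 lower. Neurog2 differed by −6.32 within number 15 and by −5.22 within number 17, Eomes by −4.50 and −2.07, Gadd45g by −5.71 and −2.54, Hes1 by 2.62 and 2.11, and Fgfr3 by 3.41 and 0.84. Dcx did not hold there, at 1.72 within number 15 and −1.14 within number 17. Tubb3 differed by 0.00 within number 15 and 1.20 within number 17. The apical progenitor list had a median of 0.88 within the 2 numbers and the intermediate progenitor list −2.50. The neuron list had a median of 0 there, whose 3 B cells are B-15P, B-17F and B-17H. Of 110 named genes that differed by at least 1 log2 unit over all cells, 67 still did so in the same direction within these numbers. The part of the title number in the differences was otherwise not tested, since the other numbers hold 1 letter each.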

How the data were processed

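Per the labels, single-cell cDNA was amplified, labelled with biotin and hybridised to Affymetrix arrays. The authors deposited 1 linear intensity per probe set and cell, and the submitters' processing notes name MAS5, with no version. The values were used as deposited, and any further scaling by the authors is not stated in the labels. Of 45101 probe sets, 34958 are annotated with 1 gene, 932 with several and 9211 with none, and 1 probe set per gene was kept, the one with the highest mean log2 signal over the 69 cells (18194 genes, 18033 of them matched in RefSeq). The floor is the lowest point of the smoothed histogram of log2 signal (bins of 0.05, SD 0.2) between its modes. A, B and all lists were compared by size, with exact Clopper-Pearson 95% intervals for shares, covering counting error only. Each letter is 1 sample because no label names an animal. The text names the 20 genes with the largest difference either way, among genes found in at least 5 A cells (or 10 B cells) and with the A median above the 75th (or below the 25th) percentile of B, a set of markers, and up to 4 members per list that differed by at least 1 log2 unit. Other list members, Cst3 and Sox4 were named after their values were seen. The members and lists were chosen with earlier results of these data known. The 36 lists hold 526 genes, of which 485 were measured. Some genes are in more than one list, so the counts of different lists are not all separate results. Of the 118 genes named by rule or for groups that do not overlap, 99 have a promoter entry in RefSeq. The alternatives were other floors, quantile and trimmed-mean scaling, all probe sets, medians, within title numbers and leaving out each cell. Scripts were tested on simulated data and used Python 3.11.15, numpy 2.4.6, pandas 2.3.3 and SciPy 1.17.1.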

Additional observations from a re-analysis of the deposited data

Results flagged for a closer look

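For each named gene, list mean and spike among the 7 A cells, the highest or lowest cell was marked where its gap to the nearest other cell, divided by the range, passed Dixon's 95% critical value (0.568). This marked 26 of 160 sets of values. The rate by chance alone, about 1 in 20, holds for normal values without a floor. Many sets here had cells at the floor, so 26 of 160 cannot be set against that rate. Genes and list means at the floor in 6 cells are marked by construction whenever the remaining cell passes it. This held for Neurog2, Mfng, Nsg2, Lzts1, Cemip2, Sdc3, Elmod2 and Stmn2. It also held for the means of the Cajal-Retzius and the pericyte and meningeal lists.

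A-15M stood apart most often. It was lowest of the A cells for Aldoc (9.11 log2), Kbtbd11 (5.72 log2), Fgfr1 (7.59 log2), Gas1 (9.03 log2), Jun (7.90 log2) and the housekeeping list mean (8.998 log2), and highest for Nsg2 (8.70 log2) and Sdc3 (7.73 log2). A-17M was highest for Stmn2 (8.81 log2), Cemip2 (7.69 log2) and Elmod2 (8.14 log2). A-23N was lowest for Sox2 (8.98 log2), Xist (5.72 log2), the sex-linked list mean (6.17 log2) and the phe spike (5.92 log2), and highest for the pericyte and meningeal list mean (6.01 log2). A-15B was highest for Lzts1 (9.35 log2) and Hmgn3 (11.999 log2), and A-15K was highest for E2f1 (9.83 log2) and lowest for Sybu (5.72 log2) and Sox4 (6.89 log2). A-5G was lowest for Vim (12.05 log2) and the p53 and cell death list mean (5.98 log2) and highest for Mfng (5.77 log2) and the Cajal-Retzius list mean (5.84 log2). A-11L was highest for Neurog2 (7.69 log2). The spread of B was not tested this way, since B has 14 cells.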

How the results depend on the processing

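No paired analysis was possible because the titles give no replicate number that pairs A with B cells, and only 2 title numbers hold both letters. The main counts, 877 genes higher and 635 lower in A, were 1822 and 1358 with the TrpnX floor, 2035 and 1443 with no floor, and 454 and 301 with all probe sets of a gene averaged. Differences of medians gave 1021 lower, and the within-title-number average gave 1299 lower. Leaving out 1 cell at a time gave 821 to 1039 higher and 602 to 744 lower. The apical progenitor median of 2.03 was 3.28 with the TrpnX floor, 3.32 with no floor and 0.88 within title numbers. The intermediate progenitor median of −1.54 was −2.96, −2.87 and −2.50 in the same order of settings. The neuron median of −1.01 was −1.80 with no floor and 0 within title numbers. Leaving out 1 cell gave 1.89 to 2.14, −1.76 to −1.46 and −1.10 to −0.85 for these 3 lists. Of the 110 named genes that differed by at least 1 log2 unit, 12 changed sign under some alternative, in each case within title numbers: Tubb3 (0.60), Dcx (0.29), Birc5 (−0.16), E2f5 (−1.34), E2f1 (0.56), Fzd8 (−0.043), Cdon (−0.12), Cenpj (1.72), Nde1 (−0.0046), Hmga2 (−0.33), Slc2a1 (−0.38) and Nsdhl (−1.98). That setting rests on 4 A and 3 B cells, and the cause was not tested. Of the 8 other named genes, 6 changed sign under some alternative (Ccnd1, Ccnd2, Mki67, Nes, Top2a and Xist), Ccnd1 and Xist also on leaving out 1 A cell. Of the 110, 20 fell under it without some 1 cell. Leaving out 1 cell moved 6 of them by over 1.5 times: Rrm2 (−0.58 without A-5G), E2f1 (−1.64 without A-15K), Tgfb2 (0.60 without A-11L), Slc2a1 (0.79 without A-23N), Sdha (1.73 without A-15B) and Mdm2 (−0.68 without A-23N). Without B-16M and B-17F, a setting chosen after seeing the data, 966 genes were higher and 691 lower. Of 24 shares of cells, 5 left their exact interval at the TrpnX floor: Hes1 in B, Eomes in A, Hes5 in A and in B, and Slc1a3 in A. Quantile normalization gave 754 higher and 737 lower, and trimmed-mean scaling 770 and 695.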
